A study of Mus musculus with 21 samples.

Results

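The 9 genes described here, Mpo, Elane, Prtn3, Ctsg, Prss57, Fcnb, Ms4a3, Plac8 and Hk3, are transcripts of the promyelocyte, the stage of neutrophil development at which the primary granules are filled. They were taken by name from a table of 30733 genes, and all 9 have a row. Not all of them encode granule contents: Mpo, Elane, Prtn3, Ctsg and Prss57 encode a peroxidase and serine proteases that are stored in primary granules, whereas Fcnb encodes a secreted lectin, Ms4a3 a membrane protein, Plac8 a small cysteine-rich protein and Hk3 a cytosolic hexokinase. RNA was sequenced from 3 sorted mouse bone marrow populations, each with a Stag2 knockout (KO) and a wild-type (WT) group, and Stag2 encodes a subunit of the cohesin ring. LSK cells are stem and multipotent progenitors (3 KO and 4 WT libraries), GMP are granulocyte and monocyte progenitors (4 KO, 3 WT) and CFU-E are erythroid progenitors (4 KO, 3 WT). The labels give the genotype as Stag2KO or Stag2WT and do not give the strain, the age, the sex, the deleted exons or what drives the deletion. All marrow was depleted of lineage-positive cells with magnetic beads before the sort.

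Primary (azurophil) granules are made early in granulopoiesis, in a burst of transcription that opens in progenitors and closes when the myelocyte starts to make secondary granules. Myeloperoxidase turns hydrogen peroxide and chloride into hypochlorous acid. The serine proteases are made as inactive precursors, are trimmed by the dipeptidyl peptidase Ctsc, bind the proteoglycan serglycin (Srgn) inside the granule, and are held in check outside it by serpins. PU.1 (row Sfpi1), C/EBP factors, RUNX1 and MYB are the textbook activators of these genes.

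Total counts per library ran from 22813333 to 32196233 in LSK, from 1250683 to 3471881 in GMP KO, from 3732769 to 4401993 in GMP WT and from 3654667 to 5550165 in CFU-E, so depth went with genotype in GMP. Stag2 was lower in LSK KO than in LSK WT (72.3 ± 6.61 against 166.1 ± 16.9 CPM, the usual library-size scaled count, mean ± SD, edgeR adjusted p = 0.027) and in CFU-E KO than in CFU-E WT (64.2 ± 15.7 against 140.7 ± 17.7 CPM, edgeR adjusted p = 0.0143). In GMP its libraries overlapped (80.9 to 150.2 CPM in KO, 98.3 to 200.4 CPM in WT, edgeR adjusted p = 0.36). The highest GMP KO library, KO 4, exceeded 2 of the 3 WT libraries, so Stag2 does not show the knockout in GMP, although CFU-E libraries made with the same 3′ kit did. KO and WT in GMP therefore name libraries as they are labelled, in every GMP result. Markers were set side by side only between GMP and CFU-E, which share a kit. The 12 erythroid genes summed to 8019 to 9576 CPM in CFU-E and to 211.1 to 307.1 CPM in GMP, and 7 genes of the GMP gate and of myeloid receptors to 915.1 to 1134.9 CPM in GMP and to 53.6 to 101.1 CPM in CFU-E. Among those 7 in GMP WT, Fcgr3 stood at 594.1 ± 66.8, Cd34 at 181.0 ± 6.33 and Kit at 46.6 ± 1.91 CPM. Kit was not lower in CFU-E WT, at 69.8 ± 19.4 CPM. Of the 7 genes, 6 had a positive log2 fold change for WT GMP against WT CFU-E and 1 a negative. In LSK 10 stem and multipotent progenitor genes summed to 2129 to 3071 CPM, with none at 0. GMP libraries also held much late neutrophil RNA, 76989 to 211105 CPM summed over 20 genes. LSK WT 2 and WT 4 held the most late neutrophil RNA of their group, and GMP KO 4 was the lowest of its group for most of the 9 genes. Values without them are given with the results.

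Of the 9 genes, 3 lie near each other on chromosome 10. In the RefSeq gene order of GRCm38.p6 among genes of the count table, Prtn3 and Elane are direct neighbours, and Palm, E130317F20Rik and Ptbp1 lie between them and Prss57. RefSeq promoter windows (250 bases before to 50 after the start site) matched 8 of the 9 genes, with 2 starts for Plac8. The 3 stretches printed here are the 250 bases before the start of the adjacent pair Elane and Prtn3 and of Hk3, the gene with the clearest difference between genotypes. They are written 5′ to 3′ on the strand of the gene, in GRCm38.p6, and capitals mark the 7-base ETS and PU.1 core AGGAAGT or its reverse complement.

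Elane (chr10:79886062-79886311, plus strand): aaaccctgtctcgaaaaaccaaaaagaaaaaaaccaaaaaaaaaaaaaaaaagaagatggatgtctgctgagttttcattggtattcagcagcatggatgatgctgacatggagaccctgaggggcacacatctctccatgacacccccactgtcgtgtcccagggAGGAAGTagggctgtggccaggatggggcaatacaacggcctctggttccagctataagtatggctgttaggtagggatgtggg

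Prtn3 (chr10:79879417-79879666, plus strand): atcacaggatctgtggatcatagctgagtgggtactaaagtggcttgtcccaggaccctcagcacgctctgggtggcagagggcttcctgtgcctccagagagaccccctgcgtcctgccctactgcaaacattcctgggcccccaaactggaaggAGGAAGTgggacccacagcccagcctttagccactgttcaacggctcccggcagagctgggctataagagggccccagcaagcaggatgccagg

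Hk3 (chr13:55021386-55021635, minus strand): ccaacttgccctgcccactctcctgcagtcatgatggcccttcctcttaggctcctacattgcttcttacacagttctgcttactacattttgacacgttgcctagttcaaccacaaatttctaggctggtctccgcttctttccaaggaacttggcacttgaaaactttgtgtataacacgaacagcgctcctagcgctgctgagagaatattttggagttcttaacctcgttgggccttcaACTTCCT

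The core starts 84 bases before the start site in Elane and 94 bases before it in Prtn3. In Hk3 the match is on the other strand and takes up the 7 bases directly before the start site, where its last base is also the first of a RUNX core, TGTGGT. Searched on both strands of the 300-base windows, AGGAAGT was found in 6 of the 8 genes (Mpo, Elane, Prtn3, Ctsg, Fcnb and Hk3) and in 9.35% of 32851 RefSeq promoters of this length. The other letters searched were TTNNGNAAT for C/EBP, found in Ms4a3 alone and in 11.5% of all promoters; TGTGGT for RUNX, found in Ctsg, Hk3 and Plac8 and in 16.8%; TAACNG for MYB, found in Elane and Mpo and in 23.3%; and TATAA, found in Ctsg, Elane, Fcnb, Hk3 and Prtn3 and in 24.9%. In Elane and Prtn3 the TATAA match begins 31 and 32 bases before the start site. These matches describe letters in a window and say nothing of binding.

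All 9 genes were far higher in WT GMP than in WT CFU-E, the comparison of a granulocyte and monocyte progenitor with an erythroid one made with the same library kit. In this comparison edgeR called 46.9% of 10329 genes, and 25% of genes were called as higher in GMP. Among these libraries CFU-E WT 3 alone was on flow cell B. The flow cell term of the fit took up that library, so the fold changes rest on the other CFU-E libraries. The log2 fold changes were 8.93 ± 0.467 (SE) for Mpo, 8.81 ± 0.444 for Elane, 8.97 ± 0.453 for Prtn3, 8.97 ± 0.447 for Ctsg, 7.75 ± 0.407 for Prss57, 9.44 ± 0.409 for Fcnb and 8.60 ± 0.393 for Ms4a3. Plac8 had the smallest, 6.77 ± 0.365, a 109-fold difference. Hk3 had 561 counts over the 3 WT GMP libraries and 1 count over the 3 WT CFU-E libraries, a ratio of 602 per total count with an exact 95% counting interval from 108 to 23828. Fcnb had 22 counts over the 3 WT CFU-E libraries, and Ctsg and Prss57 had 4 and 7 in WT 3. These 3 genes and Hk3 passed the minimum count of 10 only through GMP, where they are high, so their differences describe levels and test nothing. For the other 5 the edgeR unadjusted p-values ran from 5.49e-17 to 2.18e-15. Scaling by total counts alone shifted the median of all genes by -0.46 on the log2 scale and left all 9 genes higher in GMP.

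Mpo was still seen in every CFU-E library, at 16.5 to 75.6 CPM, and Plac8 at 12.5 to 46.6 CPM. Ctsg, Prss57, Fcnb and Ms4a3 lay at or below 12.2 CPM in every CFU-E library. Hk3 had no count in 5 of the 7 CFU-E libraries, where 3 counts would correspond to 0.541 to 0.821 CPM. Late neutrophil genes summed to 298.9 to 873.6 CPM in the same libraries, with Cxcr2 and Ly6g at 0 in all 7, and their part in the low CFU-E values was not tested.

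**Figure D1:**
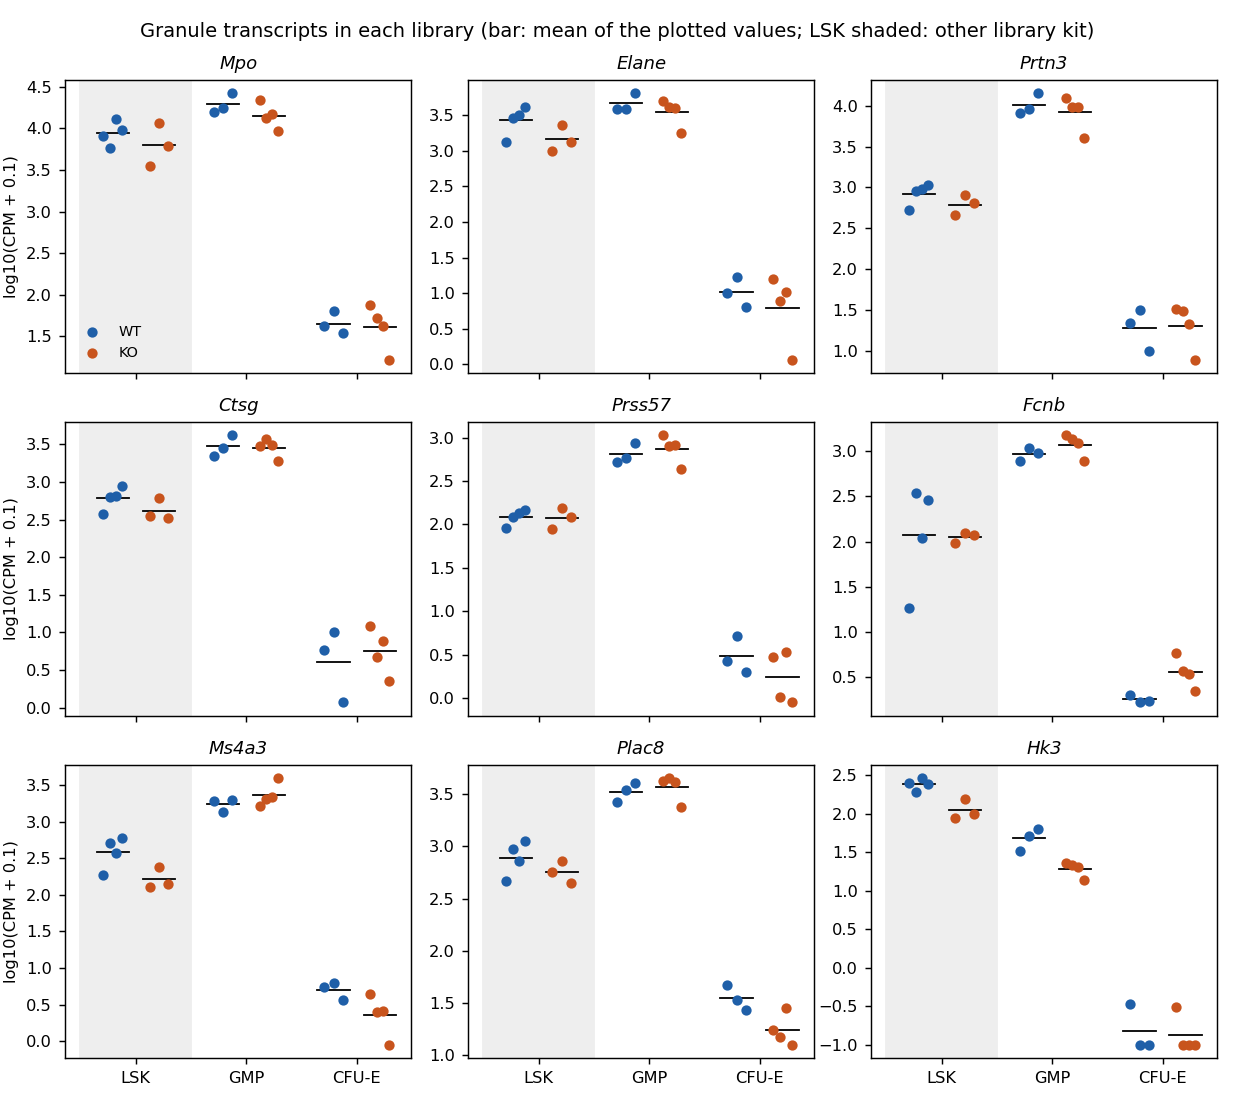
Level of each of the 9 genes in every library, as log10 of CPM plus 0.1, by population (x axis) and genotype (colour), with a bar at the mean of the plotted values. GMP points lie far above CFU-E points for every gene, and the LSK columns, shaded, come from another library kit, so their height cannot be set against the others.

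In LSK, whose libraries cover whole transcripts, levels between genes were compared per kilobase of exon (GENCODE M21 exon union, an annotation of another build than the counts). In WT LSK, Elane had 2947 ± 1190.3 and Mpo 2664 ± 866 CPM per kilobase (SD, n = 4), which do not differ beyond their spread. Ctsg followed at 615 ± 196, Plac8 at 514 ± 179 and Prtn3 at 501 ± 139 CPM per kilobase, and these 3 also overlapped in their spread. Ms4a3 had 224 ± 96.9 and Fcnb 141 ± 113 CPM per kilobase. Hk3 with 67.0 ± 11.1 and Prss57 with 43.5 ± 8.16 CPM per kilobase were lowest, and their libraries did not overlap, from 52.9 to 79.8 for Hk3 and from 32.4 to 51.4 for Prss57. These orders rest on the exon union as length, 3682 bases for Hk3 and 2843 for Prss57. The spread of the libraries does not cover an error in that length.

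Together the 9 genes took 4.202 ± 1.034% of all counts in GMP WT (n = 3) and 4.06 ± 1.21% in GMP KO (n = 4). In LSK they took 1.54 ± 0.380% in WT (n = 4) and 1.05 ± 0.451% in KO (n = 3), and in CFU-E 0.0129 ± 0.00409% and 0.0111 ± 0.00507%. The KO and WT libraries overlapped in each population: in LSK, KO ran from 0.662% to 1.54% and WT from 1.14% to 1.89%, and in GMP, KO ran from 2.52% to 5.48% and WT from 3.497% to 5.390%. The 95% Wilson interval of a library's share was at most 0.0399 percentage points to either side, which covers counting error only.

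**Figure D2:**
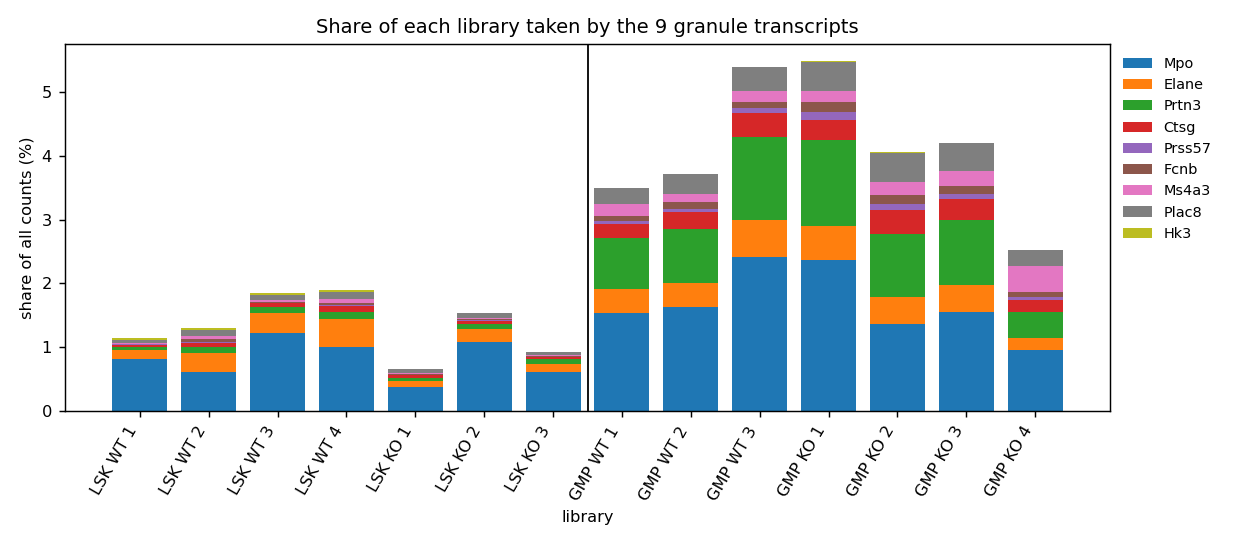
Percent of all counts of each LSK and GMP library (x axis) that falls on the 9 genes (y axis, stacked by gene). Mpo takes the largest part of every bar, and KO and WT bars overlap in both populations, from 0.662% to 1.89% in LSK and from 2.52% to 5.48% in GMP.

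Hk3 was the only one of the 9 genes that passed the test between GMP libraries labelled KO and WT. It encodes a hexokinase of myeloid cells, which phosphorylates glucose in the first step of glycolysis. Its CPM was 33.3, 51.7 and 63.3 in the 3 WT libraries and 23.0, 21.4, 20.1 and 13.9 in the 4 KO libraries, from 142, 180 and 239 counts in WT and 31, 76, 69 and 41 in KO. Every KO library lay below every WT library, and for 15.8% of all genes the 2 groups did not overlap in either direction. Hk3 fell 2.54-fold, from 49.4 ± 15.2 to 19.6 ± 4.002 CPM (log2 fold change -1.34 ± 0.269, edgeR adjusted p = 0.0217), in a comparison in which edgeR called 1.45% of 9969 genes and 1% as lower in KO. The call was lost without WT 2 (edgeR adjusted p = 0.13), without WT 3 (0.166), without KO 3 (0.0575) and after counts of each library were drawn down to the total of KO 1 (0.255, log2 fold change -0.95), and the difference lay between -0.95 and -1.57 under all alternatives. In these bulk samples, fewer cells of a type and less RNA per cell cannot be told apart.

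The other 8 genes did not pass the test in GMP, and their libraries overlapped. Mpo, the peroxidase, had 15861, 17547 and 26526 CPM in WT and 21924, 13353, 14821 and 9340 CPM in KO (log2 fold change -0.43 ± 0.295, edgeR adjusted p = 0.445). The highest Mpo value was a WT library and the lowest was KO 4. The KO library with 21924 CPM lay inside the WT range, and all other KO libraries lay below every WT library. Among the proteases, Elane, neutrophil elastase, had 3913, 3912 and 6477 CPM in WT and 4993, 4069, 4013 and 1786 CPM in KO (-0.36 ± 0.311, edgeR adjusted p = 0.543). Prtn3, proteinase 3, had 10480.0 ± 3295 CPM in WT and 8971 ± 3574 in KO (-0.22 ± 0.329, edgeR adjusted p = 0.734), and Ctsg, cathepsin G, 3081 ± 983 and 2945 ± 769 CPM (-0.07 ± 0.274, edgeR adjusted p = 0.92). Prss57, also known as neutrophil serine protease 4, had 659.7 ± 181 CPM in WT and 777.5 ± 257 in KO (0.24 ± 0.282, edgeR adjusted p = 0.673). For all 5, KO 4 was the lowest of the KO libraries.

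Of the remaining genes in GMP, Fcnb, a lectin that recognises microbial sugars, had 782.8, 1076 and 948.6 CPM in WT and 1498, 1359, 1221 and 776.9 CPM in KO (log2 fold change 0.37 ± 0.249, edgeR adjusted p = 0.428). Its KO libraries 1, 2 and 3 lay above all WT libraries and KO 4 lay below them. Ms4a3, a membrane protein that marks the path to granulocytes and monocytes, had 1941, 1369 and 1973 CPM in WT and 1654, 2032, 2205 and 3995 CPM in KO (0.49 ± 0.290, edgeR adjusted p = 0.376). Plac8 had 2632, 3442 and 4047 CPM in WT and 4233, 4529, 4094 and 2362 CPM in KO (0.17 ± 0.262, edgeR adjusted p = 0.742). Over the 9 genes the median log2 fold change was -0.07, with 5 negative and 4 positive, beside a median of 0.02 over all genes. Scaling by total counts alone shifted the median of all genes by 0.15 and that of the 9 genes to 0.10, turned Ctsg to the positive side, and changed the split of all calls from 45 higher and 100 lower to 74 higher and 60 lower.

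Most groups held a library at 1 end for most of the 9 genes. LSK KO 2 was the highest for 9 genes and CFU-E KO 4 the lowest for 8. GMP KO 4 was such a library, and an outlier rule (gap to the nearest value over the range) flagged none of its values. It had the lowest KO value of 8 of the 9 genes and the highest of Ms4a3, and without it the differences were -0.24 for Mpo, -0.11 for Elane, 0.04 for Prtn3, 0.12 for Ctsg, 0.56 for Fcnb and 0.18 for Ms4a3 on the log2 scale, with Hk3 at -1.19 (edgeR adjusted p = 0.00999). GMP WT 3 was the highest WT library for 8 of the 9 genes, and without it Mpo differed by -0.17, Elane by -0.08, Prtn3 by 0.06 and Hk3 by -1.13. Without KO 1, the shallowest library, and KO 4 together, a choice made after the data were seen, Hk3 differed by -1.23 (edgeR adjusted p = 0.0448).

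**Figure D3:**
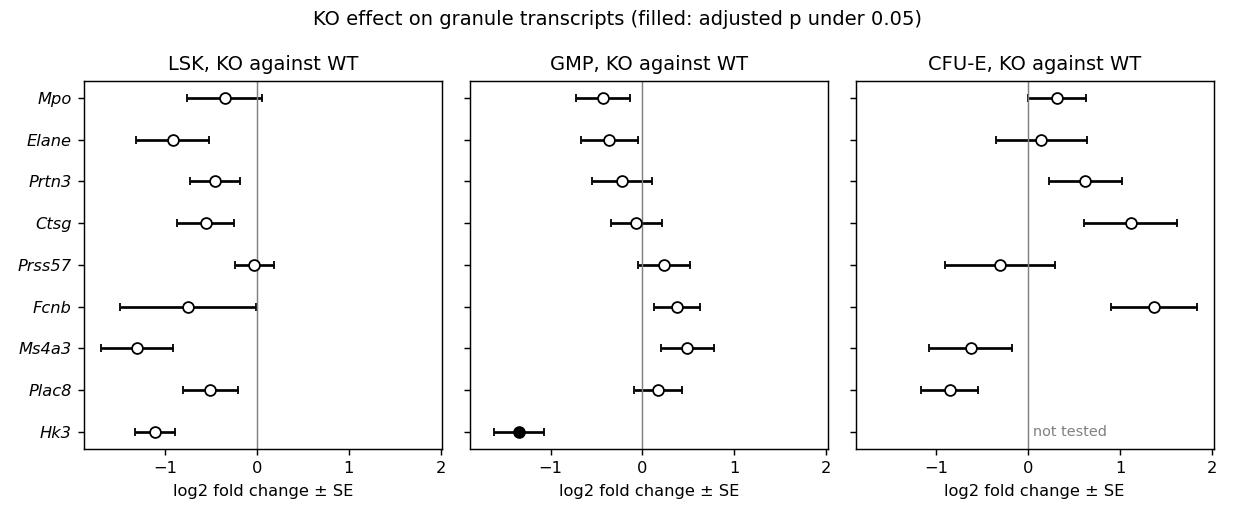
Log2 fold change of KO against WT with its standard error for each gene (rows) in LSK, GMP and CFU-E (panels), filled where the edgeR adjusted p was under 0.05. Hk3 in GMP, at -1.34, is the only filled point, and all 9 points lie below 0 in LSK.

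In LSK no member passed the test, although all 9 differences were negative. edgeR called 0.0793% of 17664 genes in this comparison. DESeq2 called 342 of the 17664, among them Hk3 (DESeq2 adjusted p = 0.000387) and Ms4a3 (DESeq2 adjusted p = 0.0259). An unadjusted edgeR p under 0.05 was found for 3 of the 9 genes and for 1392 of all 17664. The median over the 9 genes was -0.55, beside 0.00 over all genes, of which 49.4% were negative. Hk3 had 255.6, 194.6, 293.8 and 242.6 CPM in the 4 WT libraries and 88.4, 154.0 and 100.8 CPM in the 3 KO libraries (log2 fold change -1.11 ± 0.220, edgeR adjusted p = 0.175). Its KO libraries all lay below its WT libraries, and 7.89% of all genes had groups that did not overlap. It was the only one of the 9 with this separation in LSK, as it was in GMP.

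Ms4a3 had 188.4, 520.2, 372.3 and 604.6 CPM in LSK WT and 126.7, 243.0 and 142.0 CPM in LSK KO (log2 fold change -1.30 ± 0.395, edgeR adjusted p = 0.394). WT 1 lay inside the KO range and the other 3 WT libraries above it. Elane had 1351, 2849, 3233 and 4167 CPM in WT and 995.0, 2297 and 1319 CPM in KO (-0.92 ± 0.400, edgeR adjusted p = 0.628). Mpo had 8088, 5836, 12888 and 9675 CPM in WT and 3554, 11738 and 6189 CPM in KO (-0.35 ± 0.405, edgeR adjusted p = 0.894), with KO 2 above 3 of the 4 WT libraries. The remaining proteases differed by -0.46 ± 0.273 for Prtn3, -0.55 ± 0.311 for Ctsg and -0.03 ± 0.215 for Prss57, with edgeR adjusted p-values from 0.777 to 0.98. Plac8 differed by -0.50 ± 0.296 (edgeR adjusted p = 0.789). Fcnb had 18.4, 341.8, 110.4 and 287.0 CPM in WT, an 18.6-fold range, and 95.05, 124.7 and 118.5 CPM in KO, inside it (-0.75 ± 0.741, edgeR adjusted p = 0.886).

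The LSK WT libraries also differed among themselves, in the 9 genes and in late neutrophil RNA. LSK WT 1 was the lowest WT library for 7 of the 9 genes and WT 4 the highest for 6. The 20 late neutrophil genes summed to 884.5, 12202, 2288 and 6449 CPM in WT 1 to 4 and to 1405, 1784 and 2789 CPM in KO 1 to 3, and none of the 20 was at 0 in any LSK library. The 14 monocyte genes summed to 319.3 to 949.9 CPM in WT and 180.5 to 661.9 CPM in KO. Leaving out WT 2 and WT 4, the libraries with the most late neutrophil RNA and a choice made after the data were seen, gave -1.25 for Hk3, -0.71 for Ms4a3, -0.57 for Elane, -0.54 for Mpo, -0.25 for Ctsg, -0.23 for Prtn3, -0.04 for Plac8, 0.11 for Prss57 and 0.81 for Fcnb on the log2 scale. So 7 of 9 remained negative, Hk3 was as low without these libraries, and the sign of Fcnb turned.

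**Figure D4:**
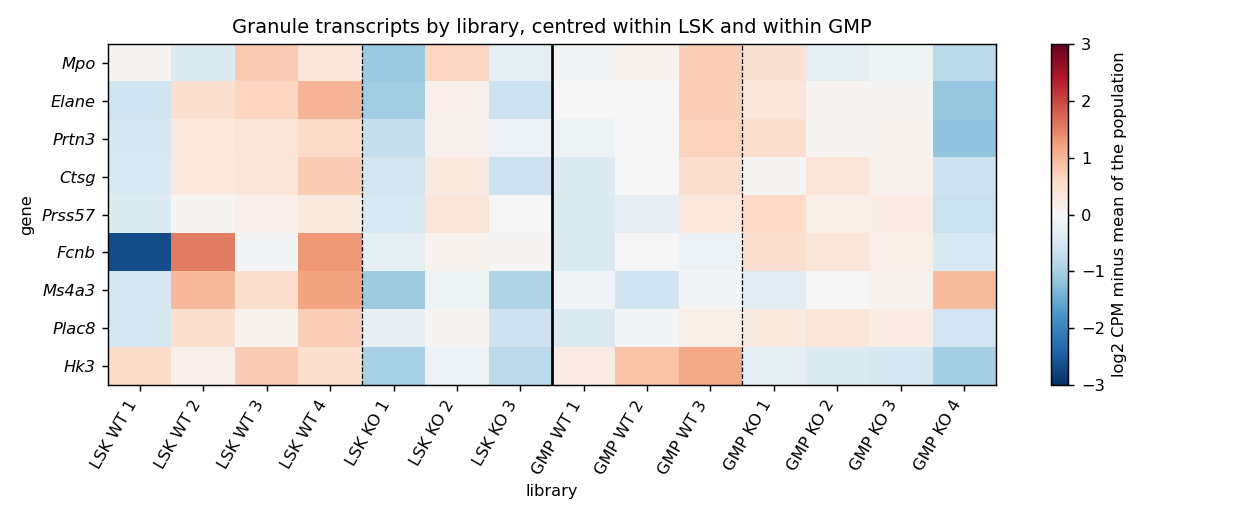
Log2 CPM of each gene (rows) in each LSK and GMP library (columns), less the mean of its population, with red above and blue below that mean. LSK WT 1 is blue for most genes and darkest for Fcnb, LSK WT 4 is red for all 9 genes, GMP KO 4 is blue except for Ms4a3, and Hk3 is red in all 7 WT libraries and blue in all 7 KO libraries.

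In CFU-E none of the 8 genes that could be tested passed, at levels far below GMP. Here edgeR called 1.06% of 10170 genes, and DESeq2 called 182, with none of the 8 among them. An unadjusted edgeR p under 0.05 was found for 3 of the 8 genes (Ctsg, Fcnb and Plac8) and for 999 of all genes. Fcnb had 1.88, 1.56 and 1.62 CPM in WT and 5.71, 3.55, 3.30 and 2.13 CPM in KO, from 22 and 71 counts in all (log2 fold change 1.37 ± 0.471, edgeR adjusted p = 0.264). Its KO libraries all lay above its WT libraries, and 11.8% of all genes had groups that did not overlap. Plac8 had 46.6, 33.9 and 26.8 CPM in WT and 17.3, 14.9, 28.1 and 12.5 CPM in KO (-0.85 ± 0.309, edgeR adjusted p = 0.314), and KO 3 lay inside the WT range. Within flow cell A, which held KO 1 and WT 1 and 2, Plac8 differed by -1.22 (edgeR adjusted p = 0.0118, where the lone KO library is assumed to vary like the WT ones), and within flow cell B, with KO 2 to 4 and WT 3, by -0.53 (edgeR adjusted p = 0.619).

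The other CFU-E differences were 0.32 ± 0.317 for Mpo, 0.15 ± 0.494 for Elane, 0.62 ± 0.400 for Prtn3, 1.12 ± 0.508 for Ctsg, -0.31 ± 0.596 for Prss57 and -0.62 ± 0.450 for Ms4a3, with edgeR adjusted p-values from 0.491 to 0.959. Hk3 had 1 count in each genotype and was not tested. Within flow cells A and B respectively, Fcnb differed by 1.71 and 0.89, Ctsg by 0.61 and 2.14, Prtn3 by 0.27 and 1.02 and Mpo by 0.50 and 0.11. The 5 positive and 3 negative values gave a median of 0.23. The 10 tested late neutrophil genes, which no adjusted edgeR p called, were all positive with a median of 0.84. An unadjusted edgeR p under 0.05 was found for 7 of them and for 999 of all 10170 genes, and DESeq2 called 1 of them and 182 of all genes.

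Whether KO acted differently in 2 populations was asked with an interaction term, and none of the 9 genes passed. For GMP minus LSK edgeR called 0% of 16288 genes, 1732 genes had an unadjusted p under 0.05 and DESeq2 called 62, none of them a member. Ms4a3 came nearest, 1.73 ± 0.539 on the log2 scale (edgeR adjusted p = 0.387, unadjusted p = 0.00504), from -1.30 in LSK and 0.49 in GMP. Hk3 differed by -0.31 ± 0.358 (edgeR adjusted p = 0.794), from -1.11 and -1.34, both negative. Kit, sort and sex go with the population here: Xist had at least 154.4 CPM in every LSK library and at most 5.95 CPM in every GMP library, and their part in the interaction cannot be told apart. For GMP minus CFU-E edgeR called 0.445% of 11006 genes, and the values with the smallest p among the 9 were -1.12 ± 0.483 for Fcnb (edgeR adjusted p = 0.323), 0.95 ± 0.438 for Plac8 (0.348) and -1.19 ± 0.562 for Ctsg (0.362). DESeq2 called none of the 9 in this test either.

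Of 20 genes that process, carry and store granule proteins, 1 passed the test in GMP, where edgeR called 1.45% of all genes. Serpinb1a, an inhibitor of elastase, cathepsin G and proteinase 3 with close relatives in its family, fell to 264.7 ± 61.4 from 826.3 ± 87.5 CPM (log2 fold change -1.64 ± 0.231, edgeR adjusted p = 0.00144). The list's median was -0.28 with 17 of 20 negative. Ctsd, a lysosomal aspartic protease, differed by -0.89 ± 0.254 (edgeR adjusted p = 0.101). DESeq2 called it and Serpinb1a, among 300 of all 9969 genes in GMP. In LSK none of 20 passed, with 1 unadjusted p under 0.05, 1 call by DESeq2 and a median of -0.05. Of all 17664 genes in LSK, 1392 had such a p and DESeq2 called 342. Serpinb1a differed by -0.999 ± 0.216 (edgeR adjusted p = 0.205) without overlap of its libraries, a separation found for 7.89% of all genes.

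Other promyelocyte transcripts gave 1 call among 8 tested in GMP, where edgeR called 1.45% of all genes. Ifitm6, of an interferon-induced membrane protein family, fell to 12.4 ± 4.15 from 48.2 ± 20.5 CPM (log2 fold change -1.93 ± 0.315, edgeR adjusted p = 0.00462). Lyz1 differed by -1.37 ± 0.458 (edgeR adjusted p = 0.15), at 2.22 ± 1.11 CPM in KO and 6.11 ± 1.87 CPM in WT, near the minimum count. The median of this list was -0.19 in GMP and -1.05 in LSK, where 8 of 9 were negative, none passed, 4 had an unadjusted p under 0.05 and DESeq2 called 1. Of all 17664 genes in LSK, 1392 had such a p and DESeq2 called 342. Of the transcription factors that act on granule genes, none of 12 passed in GMP. An unadjusted p under 0.05 was found for 6 of them and for 1789 of all 9969 genes. DESeq2 called Cebpb and Klf4, among 300 of all genes. Klf4 differed by -1.05 ± 0.265 (edgeR adjusted p = 0.0631), Cebpb by -1.15 ± 0.304 (edgeR adjusted p = 0.0797) and Sfpi1, which encodes PU.1, by -0.79 ± 0.247 (130.02 ± 36.1 against 223.8 ± 27.6 CPM, edgeR adjusted p = 0.13). Each of these 3 had KO libraries below all WT libraries, as had Gfi1. Runx1 had KO libraries above all WT libraries (0.43 ± 0.215, edgeR adjusted p = 0.304). Of all genes, 15.8% had groups that did not overlap. Myb was also higher in KO, at 0.74 ± 0.290 (edgeR adjusted p = 0.213), with libraries that overlapped. Gfi1, Runx1 and Myb were named after their values were seen. The list had 7 negative and 5 positive values with a median of -0.15. In LSK none of 14 passed, with 4 unadjusted p-values under 0.05 and a median of 0.00, and DESeq2 called Klf4 and Gfi1.

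Later neutrophil and monocyte genes gave 4 calls in GMP, where edgeR called 1.45% of all genes. Among 18 tested late neutrophil genes, 2 fell: Ltf, lactoferrin of secondary granules, to 681.2 ± 114 from 1433 ± 200 CPM (log2 fold change -1.07 ± 0.218, edgeR adjusted p = 0.0235), and Fpr2, a formyl peptide receptor, to 17.1 ± 7.85 from 45.2 ± 15.5 CPM (-1.45 ± 0.336, edgeR adjusted p = 0.0439). Ngp, another secondary granule gene, differed by -1.01 ± 0.249 (edgeR adjusted p = 0.0592), and the median of the list was -0.68 with 16 of 18 negative. In this list 10 had an unadjusted edgeR p under 0.05, as had 1789 of all 9969 genes. DESeq2 called S100a8, Ngp, Ltf, Lyz2 and Fpr2, among 300 of all genes. The summed level of the 20 genes was mostly S100a8 and S100a9 (96294 ± 12543 and 37720 ± 7462 CPM in WT). It did not overlap, 76989 to 124997 CPM in KO and 159617 to 211105 CPM in WT, and neither did 15.8% of all single genes. Among 9 monocyte genes 2 were called. Ly6c2, a surface protein of classical monocytes, fell to 625.7 ± 22.1 from 1265 ± 61.0 CPM (-1.02 ± 0.198, edgeR adjusted p = 0.0178). Fn1, fibronectin, had 2.03 ± 1.68 CPM in KO and 12.7 ± 2.01 CPM in WT (-2.89 ± 0.466, edgeR adjusted p = 0.00452). Fn1 passed the minimum count of 10 only through WT, where it is high, so its call describes levels and tests nothing. Lgals3 differed by -0.93 ± 0.285 (edgeR adjusted p = 0.122). All 9 were negative, with a median of -0.71, and the 14 genes summed to 990.6 to 1160.2 CPM in KO and 1775 to 1937 CPM in WT. The part of these cell types in the Hk3 difference was not tested.

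**Figure D5:**
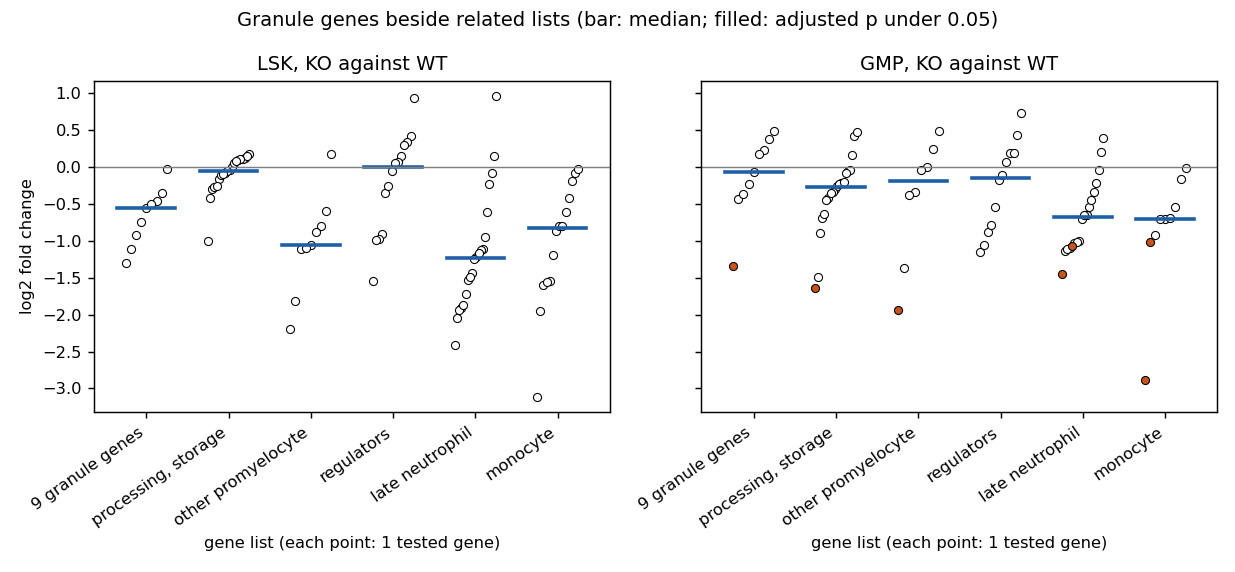
Log2 fold change of KO against WT in LSK (left) and GMP (right) for every tested gene of 6 lists (columns), with the median as a bar and filled points where the edgeR adjusted p was under 0.05. In GMP the median is -0.07 for the 9 granule genes, -0.68 for late neutrophil genes and -0.71 for monocyte genes, and no point is filled in LSK.

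Markers of further cell types gave 1 call in GMP, where edgeR called 1.45% of all genes. Ear1, an eosinophil-associated ribonuclease with near-identical relatives, rose to 53.2 ± 14.1 from 17.9 ± 10.6 CPM (log2 fold change 1.58 ± 0.349, edgeR adjusted p = 0.0379). It belongs to 8 tested mast cell, basophil and eosinophil genes with a median of 0.27, of which Cpa3, a mast cell carboxypeptidase, differed by 0.87 ± 0.281 (edgeR adjusted p = 0.139) and Fcer1a, a subunit of the IgE receptor named after its value was seen, by -0.86 ± 0.464 (edgeR adjusted p = 0.332), with 5 of the 8 positive and 3 negative. None of 11 erythroid, 5 stem and multipotent progenitor, 7 receptor, 4 megakaryocyte and 1 B cell genes passed in GMP by edgeR or DESeq2. At an unadjusted edgeR p under 0.05 the numbers were 0, 1, 2, 1 and 0, beside 1789 of all 9969 genes. Cd34, a progenitor surface protein, had the smallest p of the receptors, at 0.68 ± 0.279 (edgeR adjusted p = 0.222). In LSK no gene of the late neutrophil, monocyte, erythroid, mast cell, stem, B cell, receptor or megakaryocyte lists passed, while unadjusted p-values under 0.05 numbered 2 of 20, 6 of 14, 1 of 10, 4 of 8, 4 of 10, 4 of 6, 2 of 7 and 3 of 6, and DESeq2 called 3 monocyte, 1 stem, 4 B cell and 1 megakaryocyte gene. Of all 17664 genes in LSK, 1392 had such a p and DESeq2 called 342. The LSK medians of the late neutrophil and monocyte lists were -1.23 and -0.83, both further from 0 than that of the 9 granule genes. So were those of the B cell (-1.90), mast cell, basophil and eosinophil (-1.08) and other promyelocyte (-1.05) lists. The late neutrophil median includes WT 2 and WT 4, the LSK libraries with the most late neutrophil RNA.

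The neighbours of the clustered proteases were measured too. Of 13 genes within and beside the run from Prss57 to Elane, none of 11 tested passed in LSK (log2 fold changes from -0.19 to 0.85) and none of 7 in GMP (from -0.37 to 0.99). Ctsg lies among mast cell protease and granzyme genes, and of its 10 nearest neighbours in the table Mcpt8 alone was tested, at -1.20 in LSK (edgeR adjusted p = 0.715) and 0.26 in GMP (edgeR adjusted p = 0.61). Over the 14 LSK and GMP libraries, each centred on its population, Pearson's r with the mean of the 9 genes was 0.98 for Elane, 0.95 for Ctsg, 0.91 for Prtn3, 0.89 for Plac8, 0.76 for Prss57, 0.70 for Mpo, 0.66 for Fcnb, 0.60 for Hk3 and 0.56 for Ms4a3, each of which is itself part of that mean. Among 9791 genes the other genes most like that mean were Dok3 (r = 0.94), 1190002H23Rik (0.94), Cebpd (0.93), Cyba (0.93) and H2-Ab1 (0.93), and none of these 5 passed the test in LSK or GMP. These correlations are descriptions, since libraries of 1 genotype share their group and every value of a library shares its depth.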

How the data were processed

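RNA was measured in 21 libraries, and groups were taken from the labels. The authors deposited raw gene counts on mm9, for which the submitters' processing notes name STAR 2.4, HTSeq 0.6.1 and DESeq2. Annotation and strand setting were not stated, so overlapping genes and near-identical copies are uncertain. Per the labels' protocols, LSK libraries cover full transcripts (SMARTer) and GMP and CFU-E libraries 3′ ends after SMART-Seq2 amplification. The descriptions give 2 flow cells, A and B, for GMP and CFU-E. All GMP libraries were on A, and the CFU-E libraries of each genotype were split between A and B.

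Genes passing filterByExpr (minimum count 10, total 15) were scaled by TMM and tested with the quasi-likelihood fit of edgeR 4.0.16 (R 4.3.3), with a flow cell term wherever CFU-E took part. The threshold was a Benjamini-Hochberg adjusted p of 0.05 over all genes. Interactions tested differences between populations. Values are CPM scaled by TMM within a population, and SE is the log2 fold change over the square root of F. Both tools were tested on simulated data. DESeq2 1.42.0, other scalings, filters, thinning, a replicate block and leaving out libraries were the alternatives.

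The members, lists and rules for naming genes were chosen with earlier results of these data known: all 9 genes, list members past the threshold, the 3 with the smallest p in GMP, and the 5 genes most like the members' mean. Single-gene values of 2 list members are not reported here. Whether replicates are separate animals is not stated in the labels, so a p-value here reflects the spread of the libraries only, and that may be technical. No 2 libraries of a group agreed within sampling noise (chi-square per degree of freedom at least 4.03).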

Additional observations from a re-analysis of the deposited data

How the results depend on the processing

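All 9 genes stayed higher in WT GMP than in WT CFU-E under every alternative tried. For the KO comparisons the number of genes called over the whole table moved most, and the cause was not tested. With DESeq2 it reached 342 (LSK), 300 (GMP), 182 (CFU-E), 62 for GMP minus LSK and 134 for GMP minus CFU-E, and 2 of the 9 genes were called in LSK. Without the filter on low counts the numbers were 38, 601, 333, 12 and 254 in the same order, and 1 of the 9 genes, Plac8, was called in CFU-E (log2 fold change -0.84, edgeR adjusted p = 0.0384). A minimum count of 50 left 68 in GMP, where fewer genes are tested. Total counts alone gave 4 for GMP minus LSK, and turned Ctsg in GMP to 0.10 and Mpo for GMP minus LSK to 0.16. With GMP libraries thinned to equal depth, 25 genes and 0 of the 9 genes were called in GMP.

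The main tests did not pair samples by replicate number. With each group's mean removed, correlations of same-numbered libraries ran from 0.00 to 0.11 for LSK, from -0.16 to 0.24 for GMP and from -0.18 to 0.25 for CFU-E. So few pairs, centred in this way, cannot decide whether the replicate numbers pair the samples. With the replicate block 0 genes were called for LSK, 325 for GMP and, with the flow cell term, 31 for CFU-E, no call among the 9 genes changed, and Prss57 (0.044) and Fcnb (0.30) in LSK, Prtn3 (0.054) and Ctsg (0.14) in GMP and Prss57 (0.45) in CFU-E turned sign. Without the flow cell term 234 genes were called in CFU-E and Elane turned to -0.35. Within flow cell A, 1 of the 9 genes was called in CFU-E, against a single KO library that is assumed to vary like the WT ones. Of the alternatives added after the data were seen, leaving out LSK WT 2 and WT 4 left 1 gene called, with Prss57 at 0.11 and Fcnb at 0.81, and leaving out GMP KO 1 and KO 4 turned Ctsg to 0.18.

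Leaving out single libraries gave 0 (WT 3 or KO 2) to 123 (WT 1) genes in LSK, where each of the 7 omissions moved the number by over 1.5 times, and Prss57 from -0.23 to 0.16. In GMP it gave 38 (WT 3) to 211 (KO 4) genes, with 43 without WT 2 and 62 without KO 3, from 0 to 1 of the 9 genes, Prtn3 from -0.41 to 0.057 and Ctsg from -0.26 to 0.21. In CFU-E it gave 22 (WT 3) to 143 (KO 2) genes, with 53 without KO 1, and Elane from -0.059 to 0.34. For GMP minus LSK it gave 0 to 8 (GMP KO 1) genes, with 3 without GMP KO 3, Mpo from -0.39 to 0.49, Prtn3 from -0.013 to 0.46 and Hk3 from -0.55 to 0.042. For GMP minus CFU-E it gave 2 (CFU-E WT 3) to 72 (GMP WT 1) genes, with 28 without GMP WT 2, 31 without CFU-E WT 1 and 16 without CFU-E KO 1. In GMP, depth limits Hk3 most, with 31 counts in its shallowest library, and in CFU-E it limits Fcnb and Prss57, with 22 and 44 counts over the WT group.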
